A study of Mus musculus with 8 samples.

Results

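Genes of protein folding in the endoplasmic reticulum (ER) and of the unfolded protein response were followed in RNA from the dental epithelium of mouse incisors with and without Bmi1. The set was a named list of 10 genes: the chaperones Hspa5, Hsp90b1, Calr and Canx, the disulfide isomerases Pdia3, Pdia4 and Pdia6, and the transcription factors Xbp1, Atf4 and Ddit3. All noncontrol probes whose deposited accession maps to 1 of these genes were taken, which gave 15 of the array's 41174 noncontrol probes. These probes covered 9 of the 10 genes, of 17178 genes with a symbol on the array, and no probe matched Pdia3. All 15 were well above background on all 8 arrays, so no filter on dim probes removed any of them. The list names genes that serve the secretory load of ameloblasts.

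The incisors came from wild-type (WT) mice and from mice that carry null alleles of Bmi1 on both chromosomes (homozygous, called Bmi1 null). Bmi1 encodes a protein of a Polycomb repressive complex, and both groups were on a mixed genetic background. There were 4 samples of each genotype, each on its own single-colour Agilent array, and the labels give no age and name no treatment. The epithelium was parted from the mesenchyme mechanically after whole incisors had been digested. Nothing in the labels says that each sample was its own animal, so every p-value measures only how far these samples spread.

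The ER is where secreted and membrane proteins are folded, and enamel is laid down by ameloblasts that secrete large amounts of matrix protein through it. BiP, the product of Hspa5, and GRP94, the product of Hsp90b1, bind unfolded chains, the lectins calreticulin and calnexin hold glycoproteins, and the protein disulfide isomerases form and rearrange disulfide bonds. When unfolded protein accumulates, the sensors IRE1, PERK and ATF6 act through XBP1, ATF4 and cleaved ATF6. These factors raise chaperone genes, partly through the ER stress response element (ERSE) in their promoters, and under prolonged stress raise Ddit3, which encodes CHOP.

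The promoters of the 10 genes were searched for that element. It is known from promoters of chaperone genes such as these, so matches in them are no independent result. Each window ran from 250 bases before to 50 bases after the annotated start of the gene in RefSeq (mouse build GRCm38.p6). The ERSE was written as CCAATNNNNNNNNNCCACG and searched on both strands. It was found in the windows of 5 of the 10 genes, Hspa5, Hsp90b1, Calr, Canx and Pdia6, against 39 of 32851 windows in the whole table (0.119%). The 39 windows belonged to 37 genes, these 5 among them. The 6 matches are shown because they are the sequence that these promoters share, with the fixed letters in capitals, the variable 9-base spacer in lower case, and each written 5′ to 3′ in the direction of the motif.
Hspa5, bases -65 to -47 from the start: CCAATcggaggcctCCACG
Hsp90b1, bases -212 to -194: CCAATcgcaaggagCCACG
Hsp90b1, bases -107 to -89, on the opposite strand: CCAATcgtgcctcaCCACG
Calr, bases -162 to -144, on the opposite strand: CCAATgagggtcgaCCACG
Canx, bases -145 to -127: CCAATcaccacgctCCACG
Pdia6, bases -98 to -80: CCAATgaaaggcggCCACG
The 6 spacers differ from each other, and each holds 6 or 7 G or C letters. Hsp90b1 was the only gene in the whole table whose window held more than 1 match.

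The windows of Hspa5 and Hsp90b1 are given whole, because they belong to the most studied targets of the response and show the single and the paired arrangement. Both are written 5′ to 3′ on the strand of the gene, with the ERSE matches in capitals. The Hspa5 window is chr2:34771840-34772139 on the plus strand, and the Hsp90b1 window is chr10:86705395-86705694 on the minus strand.
Hspa5 promoter: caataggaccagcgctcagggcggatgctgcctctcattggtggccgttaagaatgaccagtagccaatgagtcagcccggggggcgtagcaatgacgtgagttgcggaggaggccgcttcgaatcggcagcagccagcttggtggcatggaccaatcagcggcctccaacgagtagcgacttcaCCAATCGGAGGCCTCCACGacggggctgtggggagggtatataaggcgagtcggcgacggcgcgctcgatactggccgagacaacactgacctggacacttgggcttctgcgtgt
Hsp90b1 promoter: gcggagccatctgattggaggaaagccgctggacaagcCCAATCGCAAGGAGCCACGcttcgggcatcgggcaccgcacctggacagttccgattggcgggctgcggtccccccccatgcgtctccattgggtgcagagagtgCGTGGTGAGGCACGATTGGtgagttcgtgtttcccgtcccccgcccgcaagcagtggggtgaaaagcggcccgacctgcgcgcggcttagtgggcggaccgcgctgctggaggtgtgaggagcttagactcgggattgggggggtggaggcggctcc
In the Hspa5 window the match lies close to the start, whereas the Hsp90b1 window holds 1 match in each direction. The windows of Calr (chr8:84846882-84847181, minus strand), Canx (chr11:50325624-50325923, minus strand) and Pdia6 (chr12:17266339-17266638, plus strand) hold 1 match each.

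When 1 of the 10 fixed letters was allowed to differ, the windows of Pdia3, Pdia4 and Ddit3 also matched. That made 8 of the 10 genes, against 494 windows of all (1.5%), and left Xbp1 and Atf4 without a match. No window of the 10 genes held the element TGACGTGG (in 0.676% of all windows), known to bind XBP1 and ATF6, or the ATF4 element TGATGNAA (3.97%), both searched on both strands. The CCAAT box alone, which is part of the ERSE, was in 9 of the 10 windows and in 37.4% of all windows. Xbp1 was the gene without it. A match is a description of these letters, and no match says only that the letters are not in the window.

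**Figure D1:**
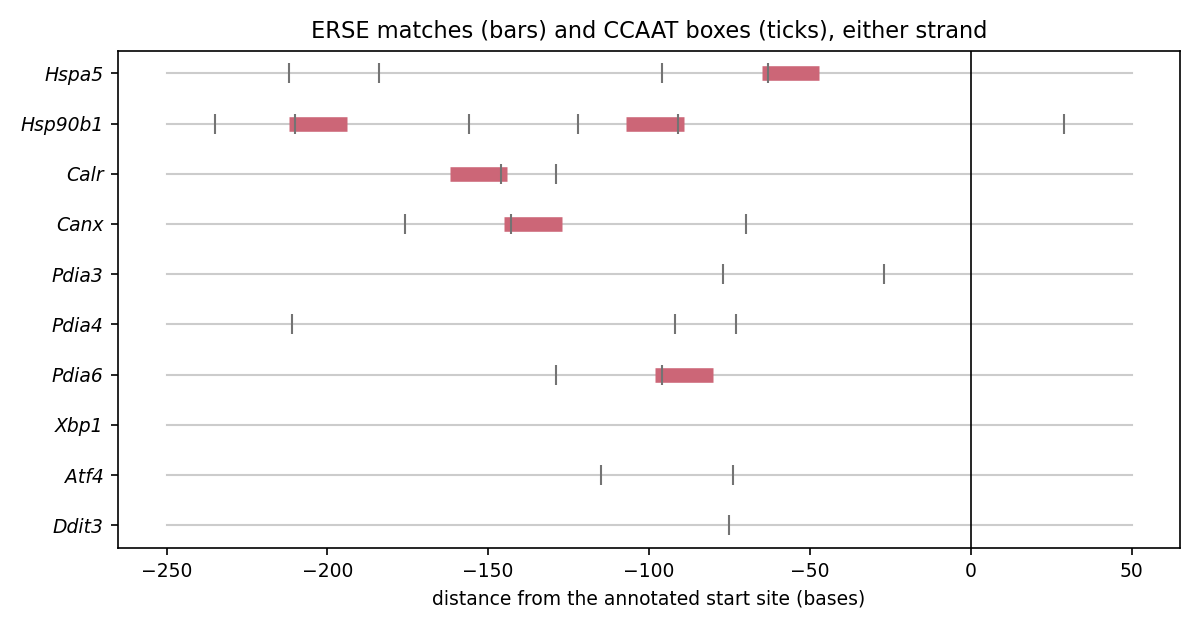
Position of ERSE matches (bars) and CCAAT boxes (ticks) on either strand in the promoter windows of the 10 genes, with the distance from the annotated start in bases on the x axis. Bars appear for Hspa5, Hsp90b1, Calr, Canx and Pdia6, with 2 of them for Hsp90b1, and every bar lies before the start.

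Bmi1 RNA was read first as a check of the labels, although a probe outside the deleted part of the gene would check nothing and the probe's position is not given. On the scale used throughout, log2 signal minus the array's 75th percentile, Bmi1 stood at 1.16, 1.27, 1.20 and 1.25 in WT replicates 1 to 4 and at -2.92, -1.22, -1.23 and -1.04 in Bmi1 null replicates 1 to 4. It fell by 2.82 ± 0.37 (SE, limma adjusted p = 0.0305), a call lost in 11 of 22 alternatives, with adjusted p from 0.000167 (without Bmi1 null replicate 1) to 0.751 (slide 1 alone). It was also lost without any other single array, at 0.0572 to 0.156. Between 69.6% and 74.4% of probes were well above background on WT arrays and between 64.2% and 68.2% on Bmi1 null arrays. The title and the file name of WT replicate 1 carry different numbers, so the identity of that array is uncertain. Each slide held 2 arrays of each genotype: WT replicates 1 and 4 with Bmi1 null replicates 1 and 2 on slide 1, and the others on slide 2.

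The comparison asked whether transcripts of ER folding and its stress response differed in dental epithelium that lacks Bmi1. None of the 9 measured genes and none of the 15 probes passed limma's test at 5% false discovery rate (FDR), where 11 of 22347 genes did (0.0492%: 0.0403% higher and 0.00895% lower) and 11 of 28606 probes (0.0385%). None had an unadjusted p under 0.05 in the fit reported here, where 6.36% of all genes did, while 9 of 324 values in the alternatives did (2.78%). Those 9 belonged to Hspa5 (-0.34 in the deposited matrix, limma adjusted p = 0.806), Xbp1 and a second Pdia6 probe, with negative values, and to Calr and Canx, with positive ones. In all 15 probes the 2 genotypes overlapped, while the groups did not overlap for 3.08% of all genes. Fold changes were positive for 6 of the 9 genes and negative for 3, but this split depended on the scaling, with 3 positive under quantile normalization, 3 under cyclic loess and 2 in the deposited series matrix. The median log2 fold change of the 9 genes was 0.15 beside 0.01 for all genes tested, and it was -0.15 under quantile normalization, -0.07 under cyclic loess and -0.18 in the deposited matrix.

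Hspa5, which encodes the main ER chaperone BiP and is the usual readout of ER stress, had nearly the same mean in both genotypes, though not under quantile normalization (log2 fold change -0.32), cyclic loess (-0.24), normexp (-0.13) or in the deposited matrix (-0.34). Its WT replicates 1 to 4 were at 5.34, 5.36, 5.22 and 5.46, and its Bmi1 null replicates at 5.33, 5.25, 5.17 and 5.58. The 4 Bmi1 null arrays spanned the whole WT range, with replicate 3 the lowest and replicate 4 the highest of all 8. The group means (SD, n = 4 each) were 5.35 ± 0.10 for WT and 5.33 ± 0.18 for Bmi1 null arrays, a log2 fold change (± SE) of -0.01 ± 0.15, for which the adjusted p by limma was 0.990. The fitted fold was 0.992, with a 95% interval of 0.792 to 1.24. Hspa5 also varied little within a genotype, with a pooled SD of 0.146 on the log2 scale beside a median of 0.400 for all genes, and 3.48% of genes varied less. Within slides 1 and 2 the log2 fold change was -0.11 and 0.09.

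Hsp90b1 encodes GRP94, the ER member of the HSP90 family, and had 2 probes. The probe with the higher signal gave 5.71, 6.01, 5.68 and 5.94 in the WT arrays and 5.64, 6.14, 5.99 and 6.15 in Bmi1 null replicates 1 to 4. Bmi1 null replicates 2 and 4 lay above every WT array, while Bmi1 null replicate 1 was the lowest of all 8. The means were 5.83 ± 0.16 and 5.98 ± 0.24 (SD, n = 4 each), with a log2 fold change (± SE) of 0.15 ± 0.17, for which the adjusted p by limma was 0.850. The 95% interval of the fold was 0.858 to 1.43. The sign of this difference turned under quantile normalization (-0.26), cyclic loess (-0.11) and in the deposited matrix (-0.31). The other probe, A_52_P590546, had a log2 fold change of 0.02.

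Calr encodes calreticulin, the soluble lectin chaperone that also binds calcium, and as scaled here it had the largest fold change of the 9 genes. WT replicates 1 to 4 stood at 3.95, 4.02, 3.73 and 4.24 and Bmi1 null replicates at 4.60, 4.68, 4.42 and 3.77. Bmi1 null replicates 1 to 3 were all above the WT range, and Bmi1 null replicate 4 was below every WT array but replicate 3. The group means (SD, n = 4 each) were 3.99 ± 0.21 for WT and 4.37 ± 0.41 for Bmi1 null arrays. The log2 fold change was 0.38 ± 0.22 (SE, limma adjusted p = 0.789), and the 95% interval of the fold was 0.934 to 1.82. Without Bmi1 null replicate 4 it was 0.58 (limma adjusted p = 0.269), the lowest adjusted p of any of the 9 genes or their probes in any alternative. Calr kept its positive sign under every scaling, at 0.23 under quantile normalization, 0.22 under cyclic loess and 0.23 in the deposited matrix, and within slides 1 and 2 at 0.55 and 0.22. The dimmer probe A_52_P672212 had a log2 fold change of 0.35, and 0.05 without Bmi1 null replicate 1, which at 0.96 stood above its other 7 arrays (-0.54 to -0.10).

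Canx encodes calnexin, the membrane-bound partner of calreticulin, and its 3 probes did not show the same spread. The probe with the highest signal gave 5.38, 5.32, 5.28 and 5.35 in WT, a narrow range, and 4.81, 5.74, 5.75 and 5.67 in Bmi1 null replicates 1 to 4. Bmi1 null replicates 2 to 4 lay above all WT arrays and replicate 1 lay below them all. The means were 5.33 ± 0.04 and 5.49 ± 0.46 (SD, n = 4 each), and the log2 fold change was 0.16 ± 0.21 (SE, limma adjusted p = 0.870, 95% interval of the fold 0.807 to 1.55). Without Bmi1 null replicate 1 it was 0.39 (limma adjusted p = 0.789), and within slides 1 and 2 it was -0.09 and 0.41. Its sign also turned under quantile normalization (-0.16), cyclic loess (-0.07) and in the deposited matrix (-0.18). On Bmi1 null replicate 1 the other probes were at 1.45 (A_52_P496596), just under the lowest WT array at 1.46, and at 0.52 (A_51_P242143), inside the WT range of 0.26 to 0.78. Their log2 fold changes were 0.07 and 0.08.

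The disulfide isomerases were measured through Pdia4 and Pdia6. Pdia4, which encodes ERp72, stood at 2.54, 2.30, 2.48 and 2.69 in the WT arrays and at 2.48, 2.77, 2.71 and 2.63 in Bmi1 null replicates 1 to 4. Only Bmi1 null replicates 2 and 3 exceeded the highest WT array, and by little. The means were 2.50 ± 0.16 and 2.65 ± 0.13 (SD, n = 4 each), with a log2 fold change (± SE) of 0.14 ± 0.15, for which the adjusted p by limma was 0.847. The 95% interval of the fold was 0.873 to 1.40. It was -0.04 with normexp background correction and -0.07 in the deposited matrix, and 0.01 and 0.28 within slides 1 and 2.

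Pdia6 encodes P5, an isomerase that also binds BiP, and its probes disagreed in sign. The probe with the highest signal gave 5.31, 5.52, 5.24 and 5.45 in the WT arrays and 5.19, 5.73, 5.59 and 5.64 in Bmi1 null replicates 1 to 4. Bmi1 null replicate 1 was the lowest array of all, as for Canx and Hsp90b1, and the other 3 Bmi1 null arrays were above every WT array, as for Canx. The means were 5.38 ± 0.13 and 5.54 ± 0.24 (SD, n = 4 each), with a log2 fold change (± SE) of 0.16 ± 0.16, for which the adjusted p by limma was 0.840. The fold had a 95% interval of 0.875 to 1.43. It turned to -0.15 under quantile normalization, -0.07 under cyclic loess and -0.19 in the deposited matrix. The second probe, A_51_P297968, gave 1.99, 2.11, 2.19 and 2.21 in the WT arrays and 1.65, 1.96, 1.63 and 1.99 in Bmi1 null samples. Here the Bmi1 null arrays were the lower ones, with WT replicate 1 level with Bmi1 null replicate 4, and the log2 fold change was -0.32 ± 0.16 (SE, limma adjusted p = 0.811 among all probes). The third probe, A_52_P339495, had -0.32 ± 0.41 and the widest interval of the 15.

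Whether the 2 Pdia6 probes with the smaller SE moved apart was tested within each array, as 1 of 8 probe pairs compared after their values were seen. The first minus the second gave 3.32, 3.40, 3.04 and 3.24 in the WT arrays and 3.54, 3.77, 3.96 and 3.65 in Bmi1 null samples, so that every Bmi1 null array lay above every WT array. Of single genes, 3.08% had groups apart, but the share over all probe pairs of the array was not counted. The mean difference was 0.48 on the log2 scale (exact permutation p = 0.0286, two-sided, the smallest that 4 against 4 arrays can give, and 0.229 adjusted over the 8 pairs). It was 0.38 and 0.58 within slides 1 and 2, 0.22 under quantile normalization, 0.29 with normexp, where the exact permutation p was 0.114, and 0.09 in the deposited matrix, where it was 0.200. The groups overlapped in the other 7 pairs, and each of those changed sign in at least 1 alternative. The transcripts that each probe measures are not given in the sources used here.

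The 3 transcription factors of the response had 1 probe each. Xbp1, whose messenger RNA is spliced by IRE1 to make the active factor, stood at 2.04, 1.70, 2.48 and 2.17 in the WT arrays and at 2.44, 1.57, 1.30 and 2.18 in Bmi1 null replicates 1 to 4. Bmi1 null replicates 2 and 3 were below all WT arrays, while replicates 1 and 4 lay among the upper WT values. The means were 2.09 ± 0.33 and 1.87 ± 0.53 (SD, n = 4 each), with a log2 fold change (± SE) of -0.22 ± 0.27, for which the adjusted p by limma was 0.859. The fold's 95% interval was 0.564 to 1.30. It was -0.03 without Bmi1 null replicate 3 and -0.41 without Bmi1 null replicate 1, and the sign stayed negative in all 22 alternatives. The single Xbp1 probe is not known to tell the spliced from the unspliced transcript, so it says nothing of splicing.

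Atf4 encodes the factor that is made when PERK slows translation, and its own control is largely translational. It stood at 0.86, 0.93, 1.09 and 0.79 in the WT arrays and at 0.82, 0.94, 0.80 and 0.74 in Bmi1 null replicates 1 to 4. The arrays of both genotypes lay close together, with WT replicate 3 the highest. The means were 0.92 ± 0.13 and 0.83 ± 0.09 (SD, n = 4 each), with a log2 fold change (± SE) of -0.09 ± 0.16, for which the adjusted p by limma was 0.899. The 95% interval of the fold was 0.738 to 1.19. Its pooled SD of 0.110 was smaller than that of all but 1.07% of the genes tested. The change was 0.06 in slide 1 and -0.25 in slide 2.

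Ddit3 encodes CHOP, the pro-death factor of prolonged ER stress. It stood at 0.32, 0.12, -0.20 and 0.33 in the WT arrays and at 0.00, 0.86, 0.54 and -0.04 in Bmi1 null replicates 1 to 4. Bmi1 null replicates 2 and 3 were above the WT range and replicates 1 and 4 inside it. The means were 0.14 ± 0.25 and 0.34 ± 0.43 (SD, n = 4 each), with a log2 fold change (± SE) of 0.20 ± 0.24, for which the adjusted p by limma was 0.861. The fold had a 95% interval of 0.788 to 1.66. Without Bmi1 null replicate 2 the change was 0.02, and within slides 1 and 2 it was 0.10 and 0.29.

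**Figure D2:**
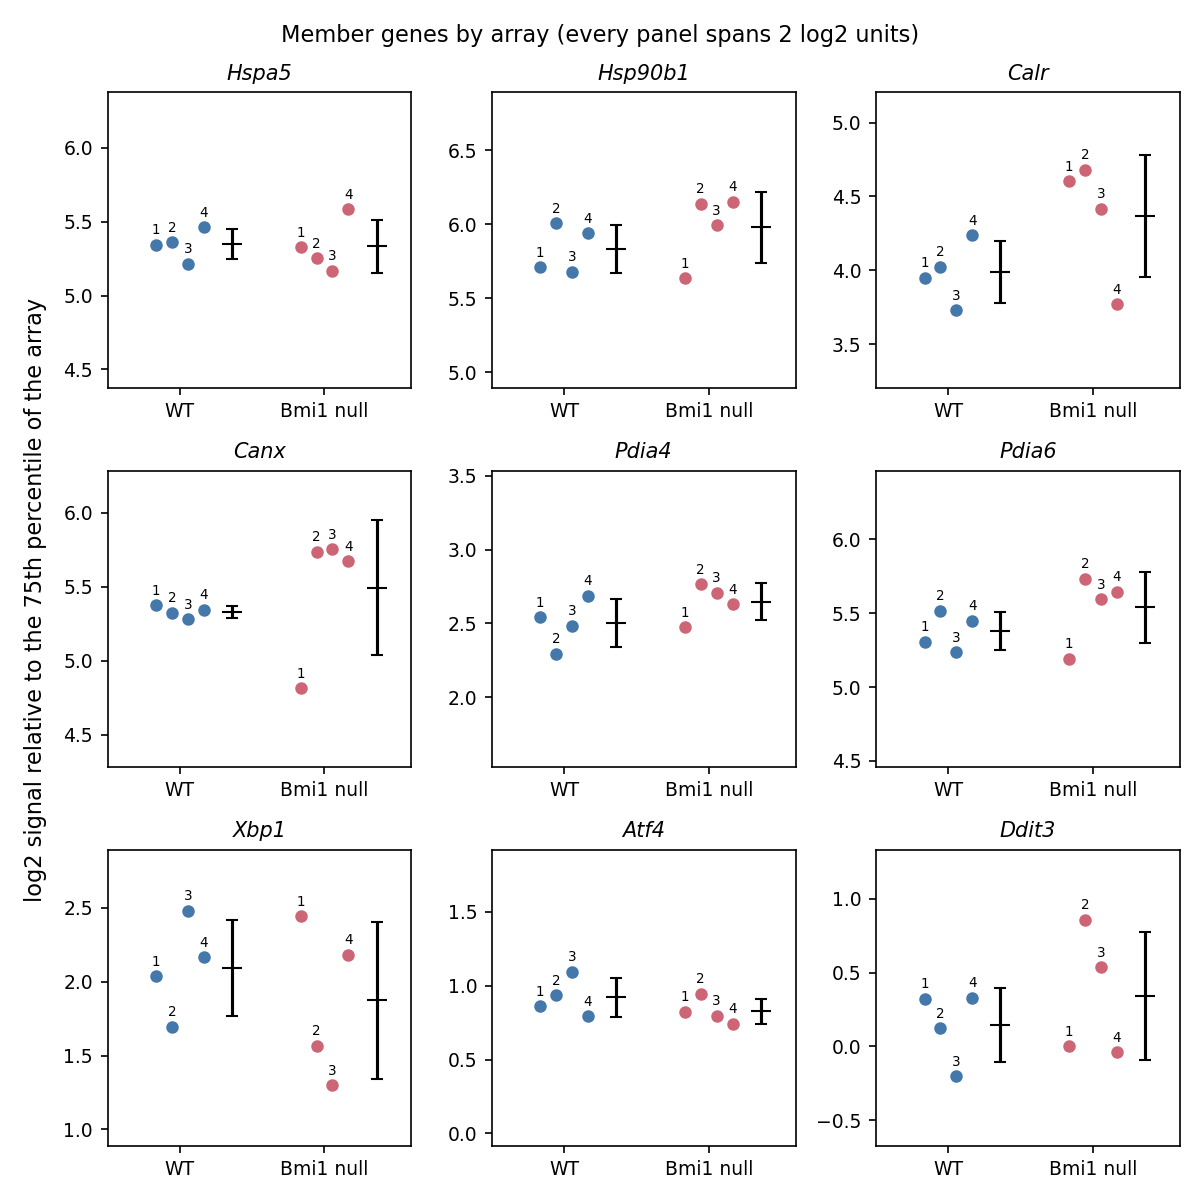
Log2 signal, relative to the 75th percentile of each array (y axis), of the 9 measured genes in WT and Bmi1 null arrays (x axis), 1 point per array with its replicate number, and the mean and SD of each group as a bar beside the points. Every panel spans the same number of log2 units. The groups overlap in all 9 panels, and Bmi1 null replicate 1 lies below all WT arrays for Hsp90b1, Canx and Pdia6.

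**Figure D3:**
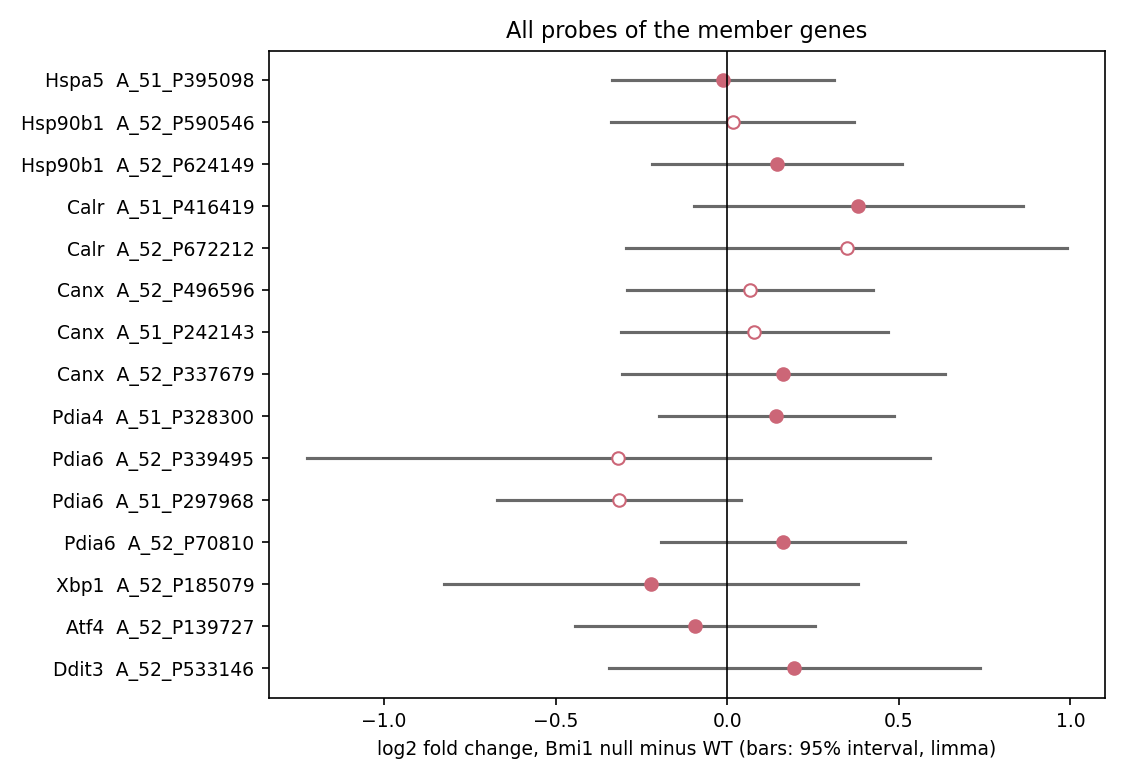
Log2 fold change of Bmi1 null over WT (x axis) for each of the 15 probes, with limma's 95% interval as a bar. Filled points are the probe that stands for its gene and open points the other probes. All 15 intervals include 0, with the Pdia6 probes on both sides of it, and the signs of the filled points of Hspa5, Hsp90b1, Canx, Pdia4, Pdia6 and Atf4 turned in some alternatives.

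The intervals set what these 8 arrays can say about each gene. They leave room for a fold of up to 1.24 for Hspa5 and up to 1.82 for Calr, and down to 0.564 for Xbp1, so a p that misses the threshold does not show that the genotypes were equal. In bulk RNA, fewer cells of a type and less RNA per cell cannot be told apart.

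No gene of the 9 separated the genotypes, and single arrays lay at the ends of the range for several genes at once. Bmi1 null replicate 2 was the highest of all 8 arrays for 4 of the 9 genes, Calr, Pdia4, Pdia6 and Ddit3. Bmi1 null replicate 1 was the lowest for Hsp90b1, Canx and Pdia6, yet it lay 0.43 above the gene's mean for Calr and 0.46 above it for Xbp1. WT replicate 3 was the lowest WT array for 6 of the 9 genes, but the highest of all 8 for Xbp1 and Atf4. Xbp1 and Ddit3 stood on opposite sides of their means in these arrays: WT replicate 3 was at 0.50 for Xbp1 and -0.44 for Ddit3, and Bmi1 null replicate 2 at -0.42 and 0.62. Averaged over the 6 measured chaperones and isomerases, the arrays ran from -0.21 in WT replicate 3 to 0.24 in Bmi1 null replicate 2.

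**Figure D4:**
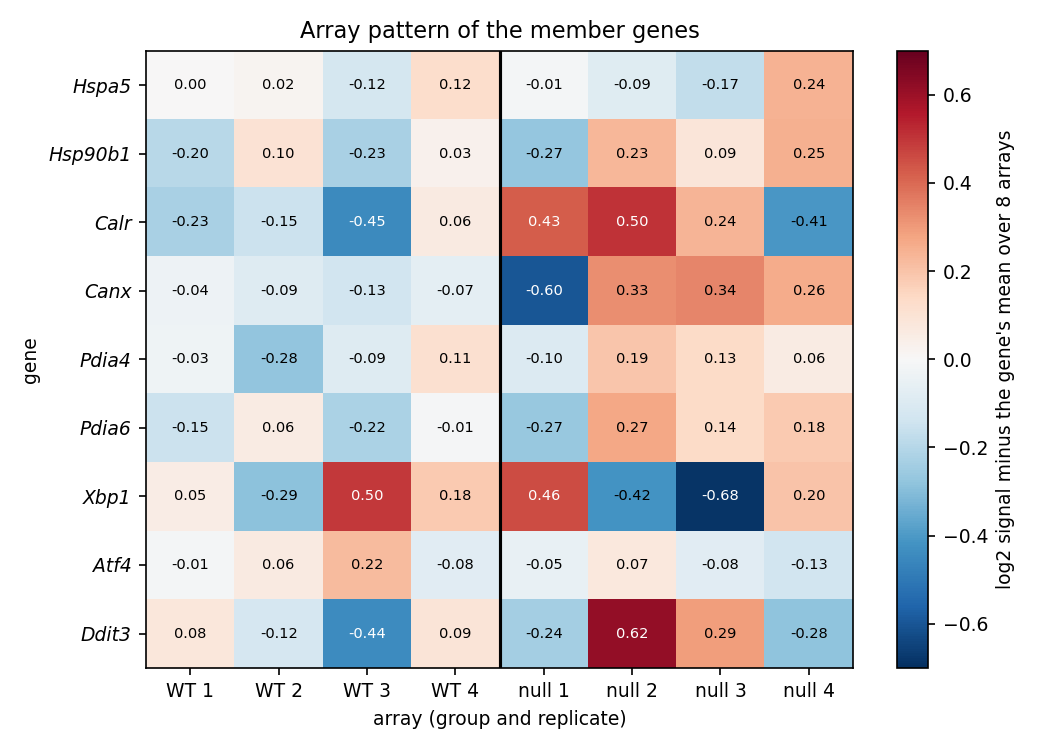
Log2 signal minus the gene's mean over the 8 arrays, as colour and number, for the 9 measured genes (rows) on the 8 arrays (columns), with WT left and Bmi1 null right of the line. Bmi1 null replicate 2 is at 0.62 for Ddit3 and 0.50 for Calr, Bmi1 null replicate 1 at -0.60 for Canx and Bmi1 null replicate 3 at -0.68 for Xbp1.

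The few genes named here, whose profiles over the 8 arrays were nearest to that mean profile, included no other gene of the pathway lists. Those lists hold 150 tested genes, a small share of the 13852 ranked, so a lack of them among so few is uninformative. It does not show that the chaperones vary apart from their pathway. Likeness was measured as the mean absolute difference between centred log2 profiles, over 13852 genes with a symbol. Mtarc2, a mitochondrial reductase, was nearest at 0.03, followed by Synj2bp and Cflar, the caspase-8 regulator, at 0.04 each, Dazap2 at 0.04 and Ppp4r3b, a phosphatase subunit, at 0.05. The mean profile itself ranged over only 0.447. Nearest to Xbp1 were Map1b (0.05), a microtubule-binding protein, Arih2 (0.09), a ubiquitin ligase, and Bbs2 (0.09), a protein of the primary cilium. Nearest to Atf4 were Scfd2 (0.05), Pgd (0.05), an enzyme of the pentose phosphate pathway, and Tesk2 (0.06), and nearest to Ddit3 were Eps15l1 (0.06), Nosip (0.06) and Rmnd1 (0.07). With 8 arrays and this many genes, near profiles are a description only.

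The neighbouring genes of the pathway were read from 9 lists, and none of their 150 tested genes passed limma's test at 5% FDR. At an unadjusted p under 0.05, 10 were higher and 0 lower (6.67% in all, beside 4.21% of all genes higher and 2.16% lower), and the groups did not overlap for 3 of the 150 (2%, beside 3.08% of all genes). Among 14 partners of BiP and other ER chaperones, 9 had a fold change above 0 and 5 below it. The median was 0.11, but it was -0.07 under quantile normalization and in the deposited matrix and -0.03 under cyclic loess. Serpinh1, which encodes the collagen chaperone HSP47, had a log2 fold change of 0.81 ± 0.24 (SE), with an adjusted p of 0.700 by limma. Hyou1, the exchange factor of BiP, had 0.67 and Ppib, a prolyl isomerase, 0.39. Among 17 disulfide and redox enzymes, 9 were positive and 8 negative with a median of 0.02 (-0.13 under quantile normalization). The 3 with the smallest p were Tmx2 (0.60), a membrane thioredoxin, Txndc5 (-0.35), an isomerase, and Ero1a (-0.35), the oxidase that recharges the isomerases.

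The lists of the next steps had medians between -0.11 and 0.11. Among 16 genes of glycoprotein folding and ER export, 7 were positive and 9 negative, with a median of -0.11, led by Uggt2 (-0.74), a folding sensor, and the retrieval receptors Kdelr2 (-0.24) and Kdelr3 (-0.32). The 16 genes of ER-associated degradation were split 8 to 8 and lay within -0.14 and 0.21, a narrow range, from Erlec1, a lectin, to Faf2, an adaptor of the p97 ATPase whose own gene Vcp had 0.14. Under quantile normalization 3 of the 16 were positive, with a median of -0.09. Among 24 genes of translocation, signal peptide cleavage and N-glycosylation, 17 were positive and 7 negative (median 0.11), but 9 were positive under quantile normalization (median -0.10). Rpn2, a subunit of the oligosaccharyltransferase, had 0.33 with all Bmi1 null arrays above all WT arrays (limma adjusted p = 0.772), the translocon gene Sec61a1 had 0.34 and Ssr4 of the translocon-associated complex 0.30.

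Of 17 genes of the stress sensors and their signalling, 8 were positive and 9 negative (median -0.03). Creb3l4, an ATF6-like membrane factor, had 0.54 with the groups apart (limma adjusted p = 0.770), Ern1, which encodes IRE1, had 0.51 and Mbtps1, a protease that cleaves ATF6, had 0.24. Of 20 targets of ATF4 and CHOP, 12 were positive and 8 negative (median 0.15, and 0.09 to 0.21 under the other scalings). Ddit4, an inhibitor of mTOR signalling that also responds to hypoxia and glucocorticoids, stood at 3.13, 2.98, 2.53 and 3.33 in the WT arrays and at 4.04, 3.87, 3.63 and 3.42 in Bmi1 null replicates 1 to 4. Its groups did not overlap, and its log2 fold change of 0.75 ± 0.21 (SE) missed the threshold (limma adjusted p = 0.678). Sesn2, a stress-induced regulator of mTOR, had 0.75 and Stc2, a secreted glycoprotein, -1.12.

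Stress genes outside the ER were listed beside them. Of 15 cytosolic and mitochondrial heat shock genes, 12 were positive and 3 negative, with a median of 0.28 that was 0.12 under quantile normalization and 0.09 in the deposited matrix, and 0.32 and 0.27 within slides 1 and 2. In that list 4 genes were higher at an unadjusted p under 0.05 (4.21% of all genes were), with Hspa8 at 0.59, Hspa1a at 0.81 and Hspb1 at 0.70 among them. Hspa1a has a near-identical copy, Hspa1b, whose RNA its probe may also bind. Of 11 immediate early genes, 8 were positive and 3 negative (median 0.14), with Egr2 at -0.78, Jun at 0.34 and Dusp1 at 0.25.

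**Figure D5:**
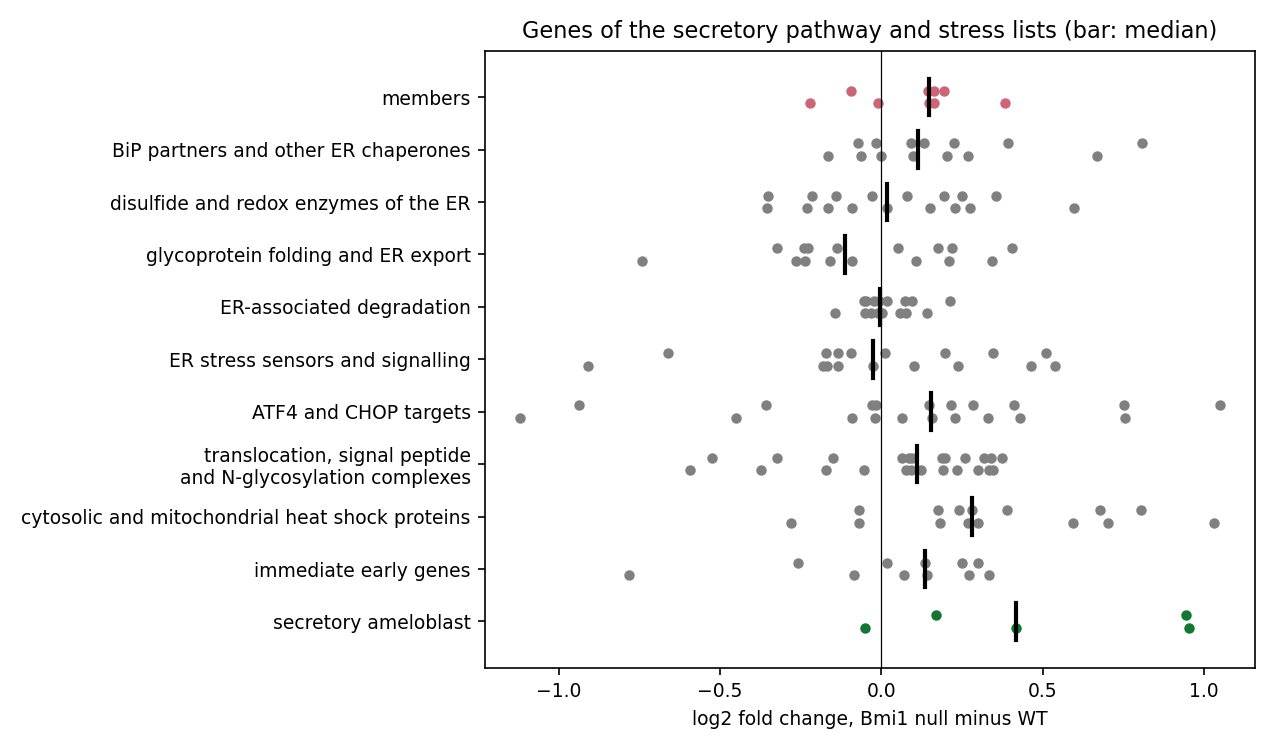
Log2 fold change of Bmi1 null over WT (x axis) for every tested gene of the 9 measured genes, of 9 pathway lists and of the secretory ameloblast markers, 1 point per gene, with the list's median as a bar. The 9 measured genes lie between -0.22 and 0.38. The medians of the measured genes, of the BiP partners, of the disulfide enzymes and of the translocation genes are positive here and negative under quantile normalization.

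The genes that share the promoter element were read the same way. Of the 37 genes with an ERSE window, 20 were tested, 12 above 0 and 8 below it, and none passed limma's test, as 0.0492% of all genes did. Of the 20, 1 had an unadjusted p under 0.05, beside 6.36% of all genes. Their median log2 fold change was 0.11, and it was 0.02 for the 15 that are not among the 10 listed genes, beside 0.01 for all genes. Creld2, Dnajc3, Ero1b, Derl3 and Syvn1 were the other ERSE genes of the pathway lists.

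Markers of the cells in these samples were measured on the same arrays. Of 7 dental epithelium markers, 6 had a fold change above 0, with a median log2 fold change of 0.54 (0.32 to 0.55 under the other scalings). Krt5, a keratin of basal cells, was the only one with the groups apart, and Shh, a signal of the dental epithelium, had -0.13. The summed signal of these markers, relative to the 75th percentile, was 144 to 209 in WT and 252 to 411 in Bmi1 null arrays, and most of it came from Krt5 and Krt14. Of 5 tested secretory ameloblast markers, 4 were positive, with a median of 0.42 (0.22 to 0.43 under the other scalings). The groups were apart for Ambn and Amelx and overlapped for Enam (0.42), Sp6 (0.17), a transcription factor of the epithelium, and Mmp20 (-0.05), the enamel protease. Their sum was 214 to 305 in WT and 376 to 498 in Bmi1 null arrays, and Cldn16 of this list was not above background on any array.

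All 7 measured markers of maturation ameloblasts, the later stage that withdraws the matrix, had a fold change above 0, with a median of 2.05 (1.87 to 2.06 under the other scalings, and 1.24 and 3.88 within slides 1 and 2). At an unadjusted p under 0.05 there were 5 of them, none passed limma's test, and the groups overlapped in all 7. Odam had 3.36, Wdr72 2.67 and Cftr, a chloride channel, 1.62, and the list summed to 1.30 to 21.9 in WT and 3.05 to 116 in Bmi1 null arrays. In slide 1 alone 6 of the 7 were positive. Arrays of 1 genotype differed widely. Car6 was at 3.18, -2.47, 3.14 and -1.99 in WT replicates 1 to 4 and at 3.75, -2.73, 4.54 and 4.48 in Bmi1 null replicates 1 to 4. Odam was at 0.26 in Bmi1 null replicate 2 and at 4.37 to 5.84 in the other Bmi1 null arrays. The cause was not tested.

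Mesenchyme and odontoblast markers were present in both genotypes (sums of 421 to 605 in WT and 383 to 885 in Bmi1 null arrays). In WT their sum was above those of the dental epithelium and secretory ameloblast markers. The lists differ in length and signals of different probes share no scale, so the sums do not compare amounts of tissue. Of the 11 mesenchyme and odontoblast markers 6 were positive and 5 negative, with a median of 0.28. The median was -0.15 under quantile normalization and -0.14 in the deposited matrix, and -0.19 and 0.58 within slides 1 and 2. Col1a1, a collagen gene, had 0.98 and Postn -0.93. Of 9 macrophage and other leukocyte markers 1 was positive, with a median of -0.61 and sums of 8.12 to 16.1 in WT and 4.12 to 9.67 in Bmi1 null arrays. Of 7 endothelium markers 0 were positive (1 with normexp), with a median of -0.29 and sums of 13.3 to 22.3 and 9.19 to 17.6. Within slides 1 and 2 the endothelium median was -0.65 and -0.06, with 0 and 3 of the 7 positive. Ms4a1, which encodes the B cell protein CD20, was the only marker past the test. It was at least 3.36-fold lower in Bmi1 null samples, where no array had it well above background (limma adjusted p = 0.00702, and not called with normexp or in the deposited matrix). Ms4a1 entered the test only through the 4 WT arrays, so its p-value rests on Bmi1 null values that were not well above background. Of the 8 tested B and plasma cell markers 2 were positive and 6 negative, with a median of -0.39 (-0.06 with normexp), and the 2 lower ones at an unadjusted p under 0.05 were Ms4a1 and Tnfrsf17, a receptor of plasma cells. The 9 measured genes summed to 192 to 223 in WT and 193 to 254 in Bmi1 null arrays. The part of the cell makeup in the values of the 9 genes was not tested.

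The enamel matrix genes Ambn, Amelx and Enam, which encode proteins that ameloblasts secrete, were set against the folding genes within each array. These had the largest fold changes of the 5 secretory ameloblast markers. Sp6 (log2 fold change 0.17) and the secreted protease Mmp20 (-0.05) of that list were not compared. Which cells of the samples supplied the RNA of the folding genes was not tested. Ambn, which encodes ameloblastin, stood at 6.13, 6.47, 5.80 and 6.35 in the WT arrays and at 6.96, 7.27, 7.45 and 6.90 in Bmi1 null replicates 1 to 4, and Amelx, which encodes amelogenin, at 6.76, 6.63, 6.15 and 6.93 and at 7.62, 7.81, 7.70 and 7.11. All Bmi1 null arrays were above all WT arrays for both, but neither passed limma's test over all genes (log2 fold change 0.95 and 0.94, adjusted p = 0.311 and 0.521). Both fold changes were smaller under quantile normalization and in the deposited matrix. There the median of the 5 secretory ameloblast markers was 0.23 and 0.22, in place of 0.42. Enam, which encodes enamelin, stood at 4.41, 4.22, 4.45 and 4.41 in the WT arrays and at 5.08, 4.44, 4.58 and 5.05 in Bmi1 null replicates 1 to 4, where replicate 2 lay inside the WT range (log2 fold change 0.42, limma adjusted p = 0.772). The log2 signal of Ambn minus that of Hspa5 was 0.79, 1.11, 0.59 and 0.89 in the WT arrays and 1.63, 2.02, 2.28 and 1.31 in Bmi1 null arrays, a mean difference of 0.97 with no overlap (exact permutation p = 0.0286, two-sided, the smallest possible, and 0.0551 adjusted over the 27 comparisons made). Amelx minus Hspa5 differed by 0.96 (the same p-values), and Enam minus Hspa5 by 0.43 with overlapping groups (exact permutation p = 0.0571). Under quantile normalization Amelx minus Hspa5 differed by 0.55 (exact permutation p = 0.0857, and 0.210 adjusted). In the deposited matrix it differed by 0.59 (exact permutation p = 0.0286, and 0.110 adjusted). The log2 fold change of Hspa5 itself was -0.32 under quantile normalization and -0.34 in the deposited matrix. Differences from Hspa5 there therefore hold a lower Hspa5 as well as a higher enamel gene.

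Over the 27 comparisons, of Ambn, Amelx and Enam with each of the 9 genes, the difference was 0.03 to 1.18. The groups did not overlap in 14, 7 of them with Ambn, 6 with Amelx and 1 with Enam (against Xbp1). They did not overlap for 3.08% of single genes, Ambn and Amelx among them, but the share over all differences between genes was not counted. None of the 27 had an adjusted p under 0.05. Over Ambn and Amelx alone, the enamel genes with the largest fold changes, the lowest adjusted exact permutation p was 0.0396 over 18 comparisons, so that the call rested on leaving Enam out. With quantile normalization the 27 differences were 0.00 to 0.71 and in the deposited matrix -0.01 to 0.70, with the smallest exact permutation p in 8 and 7 of them. Of these, 6 and 5 were with Ambn, 0 and 1 with Amelx, and 2 and 1 with Enam. For Ambn against Hspa5 the difference was 0.99 and 0.95 within slides 1 and 2, and 0.71 under quantile normalization. The higher signal of Ambn and Amelx was already known when these comparisons were chosen, so they are no independent support, and the 27 share the same arrays.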

How the data were processed

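The labels describe total RNA from separated incisor epithelium, labelled with Cy3, of 4 WT and 4 Bmi1 null samples. Per the file headers, the scanner was a G2505C, the protocol GE1-v5_95_Feb07 and the grid build mm9, and Feature Extraction 10.5.1.1 quantified the spots. The deposited processed signal is a linear intensity that had been background-subtracted and detrended array by array, with no normalisation between arrays. The deposited series matrix holds log2 values with the same quartiles in every column and the direction of the scanner values. It served as an alternative, and no source used here states its normalisation.

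Control and outlier spots were dropped, and the array's 75th percentile was subtracted from log2 signals. As linear signal that percentile was 617 to 1900 on WT arrays, highest on WT replicate 3, and 440 to 795 on Bmi1 null arrays. Probes well above background on at least 4 of 8 arrays entered, 28606 in all. Accessions were matched to RefSeq, which gave 24844 probes a symbol and 16330 none. The entering probe with the highest mean stood for a gene, and a probe with no symbol for itself. Genotypes came from the labels, and replicates were numbered in accession order. The 22347 genes were tested in R 4.3.3 with limma 3.58.1 (lmFit, eBayes with an intensity trend, two-sided, Benjamini-Hochberg over all genes), a step tested on simulated data. Exact permutation tests used SciPy 1.17.1. The number of arrays limits the precision.

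Named are the 10 genes, Bmi1, the 3 genes of each pathway list with the smallest p and any past 5% FDR, the nearest profiles (5 for the chaperone mean, 3 for each transcription factor) and markers past 5% FDR. Markers other than Ms4a1, the ERSE genes and Hspa1b are named besides, chosen after their values were seen. The 10 genes and the lists were chosen with earlier results of these data known. Probe positions and sequences, Pdia3, Dnajb11 and Aars1 were not analysed here.

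Alternatives were quantile normalization, normexp on median signals (offset 50), median scaling, a filter on all 8 arrays or none, the mean over probes, array weights, no trend, a slide block, 10% FDR and each array left out. Cyclic loess, each slide alone, the deposited matrix, probe pairs and the within-array comparisons were added after seeing the data.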

Additional observations from a re-analysis of the deposited data

Results flagged for a closer look

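In 2 of the 30 groups of 4 arrays tested, 15 probes in each genotype, 1 array lay far from the other 3 (6.67% of groups, where chance gives about 5%). Both were probes of Canx, the calnexin gene. For A_52_P337679, Bmi1 null replicate 1 was at 4.81 on the log2 scale and the nearest Bmi1 null array at 5.67. Without that array the log2 fold change of Canx was 0.39 in place of 0.16. For A_52_P496596, WT replicate 2 was at 1.46 and the nearest WT array at 1.68.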

How the results depend on the processing

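None of the 9 measured genes and none of their probes passed limma's test in any alternative: over 324 values, 33 changed sign, and the lowest adjusted p was 0.269. The count over all genes was 11, and it was 5 with normexp, 0 with the filter on all 8 arrays (limma, 1265 of 19657 genes at an unadjusted p under 0.05), 23 with array weights, 1 in slide 1 alone, 19 in slide 2 alone and 9 to 14 with 1 array left out. Normexp moved the median log2 fold change of all genes to 0.17, and the other scalings left it between -0.02 and 0.03. Signs turned under quantile normalization for Hsp90b1 (-0.26), Canx (-0.16), Pdia6 (-0.15) and Hsp90b1 probe A_52_P590546 (-0.14); under cyclic loess for the same 4 (-0.11, -0.067, -0.069 and -0.14); and in the deposited matrix for Hsp90b1 (-0.31), Canx (-0.18), Pdia4 (-0.072), Pdia6 (-0.19), A_52_P590546 (-0.14) and Canx probe A_52_P496596 (-0.040). With normexp they turned for Pdia4 (-0.045), A_52_P590546 (-0.049), A_52_P496596 (-0.043) and Canx probe A_51_P242143 (-0.015), with the mean over probes for Pdia6 (-0.16) and with median scaling for Hspa5 (0.0016). In slide 1 alone they turned for Canx (-0.086), Atf4 (0.058), A_52_P496596 (-0.082), A_51_P242143 (-0.018) and Pdia6 probe A_52_P339495 (0.21), and in slide 2 alone for Hspa5 (0.088) and A_52_P590546 (-0.12). With 1 array left out the log2 fold change ran from -0.10 to 0.043 for Hspa5, from -0.067 to 0.093 for A_52_P590546 and from -0.0094 to 0.16 for A_51_P242143, and no other gene or probe of the list changed sign. The causes were not tested. With the slide as a block the adjusted p of the 9 genes was 0.647 to 0.988, and without WT replicate 1 their fold changes ran from -0.24 to 0.37. No paired analysis was possible because the labels give no replicate numbers that the genotypes share. Within the array, Enam minus Calr turned in the deposited matrix (-0.0064) and in slide 1 alone (-0.20) and ran from -0.25 to 0.26 with 1 array left out, and Enam minus Canx from -0.071 to 0.45. The dimmest of the 15 probes was 24.1- to 132-fold above the background limit of its array.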

Other observations

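Promoter windows of the pathway genes gave a further value that enters no comparison of genotypes. Among the 19 targets of ATF4 and CHOP with a window, the windows of 7 genes, Asns, Atf3, Chac1, Nupr1, Slc7a11, Trib3 and Vldlr, held the ATF4 element TGATGNAA. It was in 3.97% of all windows, a share of windows and not of genes, and the 19 genes had 23 windows. The list was drawn up as targets of these factors, so matches in it are no independent result. The element was also in windows of 1 gene each of the BiP partners, the disulfide enzymes and the glycoprotein folding list, and of 2 genes of ER-associated degradation.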
